A study of Mus musculus with 21 samples.

Results

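Nefl and Nefm, the genes of the light and medium neurofilament chains, are described here across 21 mRNA sequencing libraries of a mouse embryonic stem cell line. They are 2 of the 31053 gene IDs in the deposited tables, and both IDs had a row in every library. They were chosen by their counts, which were lower in the group labelled LIF LP than in the group labelled CH+LIF LP, so their values in those groups are a description and carry no test. The cells were E14Tg2a, a male line of 129 background with a destabilised green fluorescent protein inserted in 1 allele of Rex1 (Zfp42), and every group carried that insertion. The 7 groups of 3 libraries were 2i+LIF PO, 2i+LIF LP, 2i+LIF HP, CH+LIF LP, CH+LIF HP, LIF LP and LIF HP. LIF (leukaemia inhibitory factor) acts through STAT3, CH stands for CHIR99021, an inhibitor of GSK3, and 2i is the usual name for CHIR99021 together with PD0325901, an inhibitor of MEK. All groups had 1 week in NDiff227 medium with CHIR99021 and PD0325901, after which the agents were alternately given and withdrawn at passages, and the same protocol text stood for all libraries. The series covered zero passage, 1 month and 2 months of culture. PO was taken to be zero passage because only 2i+LIF has it, and no length of culture was assigned to LP or HP. Nothing in the labels says that replicates were separate cultures, so the p-values measure only the spread between these libraries.

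Neurofilaments are the intermediate filaments of neurons. The light chain forms the core of the filament, into which the medium and heavy chains assemble, and the medium and heavy chains carry long, heavily phosphorylated tails that project from it. The filaments fill large axons and set their calibre, and the light chain is released when axons are damaged. Alpha-internexin (Ina) and peripherin (Prph) are the other neuronal filament proteins that can join them. Embryonic stem cells are not neurons, and neuronal genes there are known to be held down by the repressor REST.

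Both genes lie on mouse chromosome 14 in GENCODE M21 on GRCm38, the assembly that mm10 names. Nefl (ENSMUSG00000022055) has 1 annotated transcript on the plus strand, from 68083863 to 68089095, with 4 exons and 3380 exonic bases. Nefm (ENSMUSG00000022054) has 2 annotated transcripts on the minus strand, which share their start at 68124846. The shorter, Nefm-201, ends at 68119283, which leaves 30187 bases between the end of Nefl and its own end. The longer, Nefm-202, has its last exon at 68082590 to 68084970, over the first exon of Nefl at 68083863 to 68085009. The exons of the 2 genes so share 1108 bases on opposite strands, 32.8% of the exonic length of Nefl and 19.2% of that of Nefm over both transcripts. The strand setting of the counting is not given in the sources used here. Without strand, reads within the shared bases cannot be told apart between the genes. A fit on the summed counts of both genes is given below where it changes a result. Nefl had most of the summed counts in every library, so that fit follows Nefl and cannot show how far the shared bases affect Nefm.

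**Figure D1:**
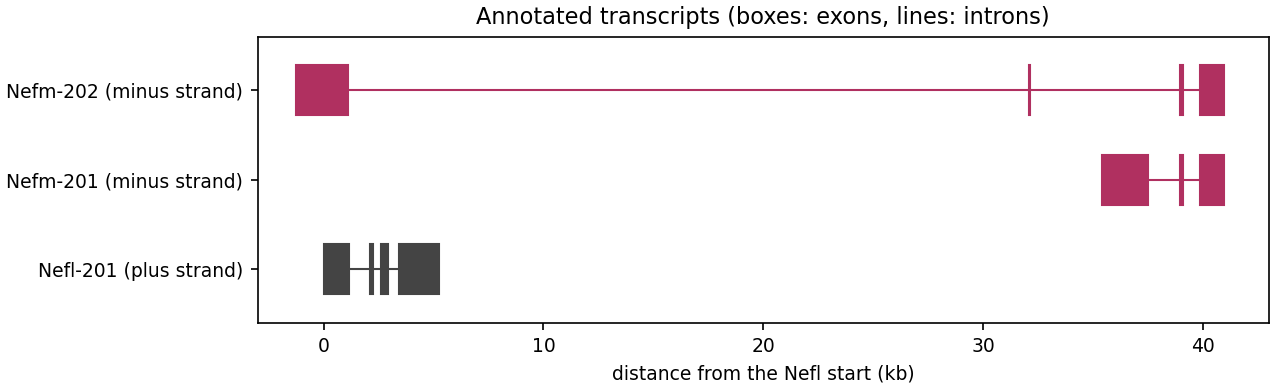
Annotated transcripts of Nefl and Nefm, with distance from the Nefl start in kilobases on the horizontal axis, exons as boxes and introns as lines. The last exon of Nefm-202 lies over the first exon of Nefl, with 1108 shared bases, whereas Nefm-201 lies 30187 bases beyond the end of Nefl.

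Gene counts per library ranged from 1132126 to 3783043, with a median of 1763531. A library differed from its replicates in each of 2 groups, and these are called below the 2 libraries that stood apart. Mitochondrial genes took 39.1% of the gene counts in 2i+LIF PO replicate 1, and the ribosomal RNA-rich locus Gm42418 took 31.7% in 2i+LIF LP replicate 1. The names of the deposited tables carry 1 code for the 3 PO libraries and another for the other 18, and nothing in the labels says what the code marks. Whatever goes with that code and a difference from PO cannot be told apart. The markers of pluripotent stem cells fixed for the check of the cell type, 8 in number, all passed the filter on low counts, and their summed level was 1413 to 3230 CPM (counts-per-million, after scaling of the library sizes) in every library. Response genes, chosen here after their values were known, matched the media labels in part only. Dusp6, a target of ERK signalling, which PD0325901 blocks, was at 0 to 1.23 CPM in the libraries labelled LIF HP and at 30.5 to 40.5 CPM in those labelled CH+LIF HP. Among groups with PD0325901 in the label it was at 2.24 to 3.69 CPM in PO and 2.32 to 4.91 CPM in 2i+LIF HP, but at 0.701 to 34.4 CPM in 2i+LIF LP. Axin2, a target of Wnt signalling, which CHIR99021 raises, was at 4.77 to 6.49 CPM in the libraries labelled CH+LIF HP and at 6.18 to 12.4 CPM in those labelled LIF HP. Sp5, another Wnt target, had means of 32.5 CPM (17.5 to 46.7) in CH+LIF HP and 24.5 CPM (19.6 to 30.2) in LIF HP, in the order of the labels with overlapping libraries, and its highest mean, 361 CPM, in 2i+LIF HP. At LP, Dusp6 had means of 38.0 CPM in CH+LIF and 27.6 CPM in LIF, and Axin2 of 5.16 and 0.763 CPM. Group names below are therefore those of the labels, not measured states of the pathways. Whether the labels CH+LIF HP and LIF HP were exchanged was not tested. If they were, every difference between these groups would have the opposite sign, and values given for one of them against PO, LP or 2i+LIF HP would belong to the other. Neither label names PD0325901, so an exchange would still leave Dusp6 at 0 to 1.23 CPM in a group labelled without it.

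Nefl was detected in every library, at 52.8 to 1028 CPM. In 2i+LIF LP its level was 1028, 825 and 711 CPM in replicates 1, 2 and 3, from 1466, 1915 and 1272 counts. In 2i+LIF HP the libraries gave 658, 505 and 852 CPM. In the libraries labelled CH+LIF HP they gave 606, 598 and 618 CPM. These 9 libraries were the highest of all for Nefl, and CH+LIF HP had the narrowest spread of any group. CH+LIF LP gave 285, 364 and 497 CPM, and the libraries labelled LIF HP gave 313, 354 and 240 CPM. In 2i+LIF PO the values were 303, 52.8 and 143.3 CPM, the widest spread of any group on the log scale, with the highest value in replicate 1, the library rich in mitochondrial counts. LIF LP was low throughout, at 84.3, 69.7 and 58.7 CPM, and overlapped only with PO. As group means the order was 2i+LIF LP at 855 ± 161 CPM, 2i+LIF HP at 672 ± 174, CH+LIF HP at 607 ± 10.0, CH+LIF LP at 382 ± 107, LIF HP at 302 ± 57.7, PO at 166 ± 127 and LIF LP at 70.9 ± 12.8 (SD, n = 3 each). Of the 6 pairs of neighbours in this order, only CH+LIF HP and CH+LIF LP had libraries that did not overlap. The highest group mean was 12.1 times the lowest.

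Nefm was lower than Nefl in every library and ranged more widely between groups. The 2i+LIF HP libraries gave 351, 195 and 355 CPM, from 756, 357 and 370 counts. The 2i+LIF LP libraries gave 189, 222 and 144.3 CPM, and those labelled CH+LIF HP gave 155.7, 169 and 159 CPM. As for Nefl, these 3 groups were above every library of the other 4. CH+LIF LP gave 50.9, 47.2 and 79.7 CPM, all above the libraries labelled LIF HP, at 39.7, 35.7 and 38.1 CPM. PO gave 23.2, 5.23 and 14.2 CPM. In LIF LP only 3, 13 and 5 counts were assigned to Nefm, or 1.65, 8.63 and 2.41 CPM, so that counting error is a large part of these values. The group means in order were 2i+LIF HP at 300 ± 91.5 CPM, 2i+LIF LP at 185 ± 38.9, CH+LIF HP at 161 ± 7.09, CH+LIF LP at 59.3 ± 17.8, LIF HP at 37.8 ± 2.00, PO at 14.2 ± 8.99 and LIF LP at 4.23 ± 3.83 (SD, n = 3 each). Libraries of neighbouring groups did not overlap between CH+LIF HP and CH+LIF LP, between CH+LIF LP and LIF HP, and between LIF HP and PO. The highest group mean was 71.0 times the lowest. In these bulk samples fewer cells with the transcript and less transcript per cell cannot be told apart.

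**Figure D2:**
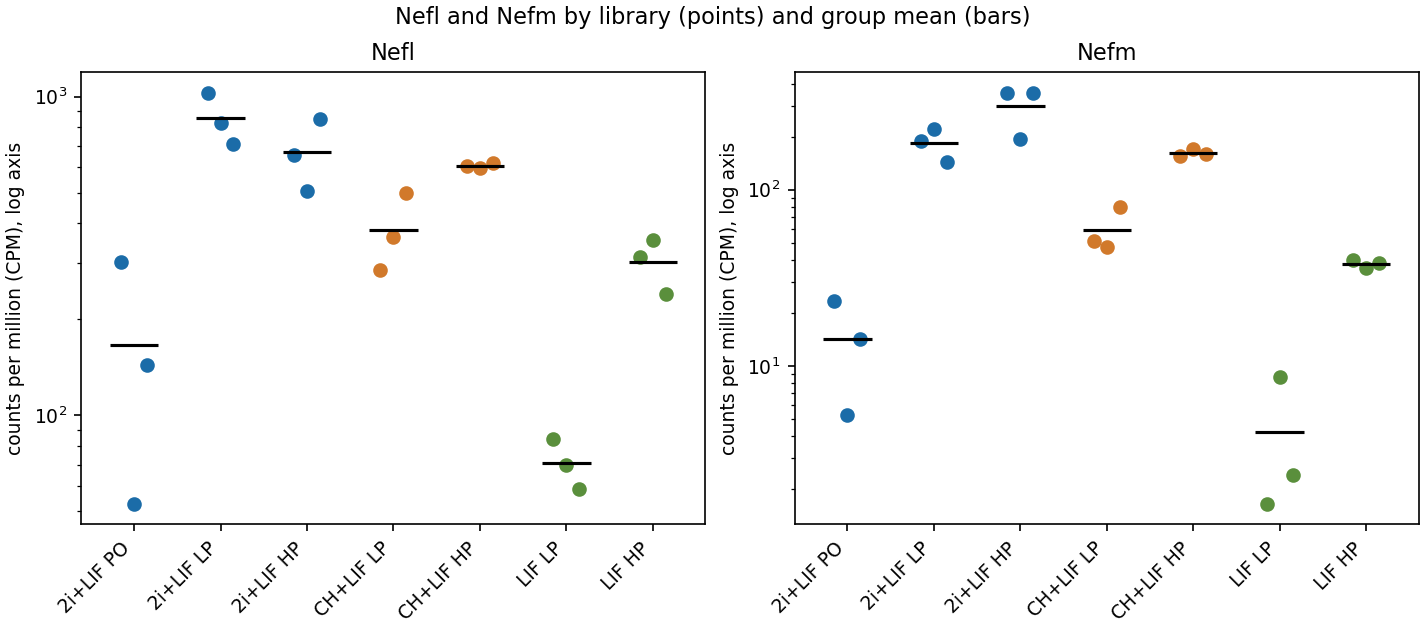
Levels of Nefl (left) and Nefm (right) in CPM on a log axis, with 1 point per library, coloured by medium, and a bar at each group mean. 2i+LIF LP, 2i+LIF HP and CH+LIF HP are the 3 highest groups for both genes, and LIF LP has the lowest mean for both (70.9 CPM for Nefl, 4.23 CPM for Nefm).

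Per kilobase of exonic sequence Nefl was the more abundant transcript in every group mean. In 2i+LIF LP the level per kilobase was 253 CPM for Nefl and 32.0 CPM for Nefm over both of its transcripts, or 55.5 CPM if all Nefm counts are set on the length of Nefm-201. In 2i+LIF HP the levels per kilobase came closest as a ratio, at 199 CPM for Nefl and 51.9 CPM for Nefm, or 90.0 CPM on the length of Nefm-201. In LIF LP they were 21.0 CPM for Nefl and 0.731 CPM for Nefm.

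The comparison on which the genes were chosen, LIF LP against CH+LIF LP, gave a log2 fold change of -2.43 (SE 0.44) for Nefl and -3.85 (SE 0.53) for Nefm. In it 0.0376% of the 10643 genes tested were called lower by edgeR, which is 4 genes. Nothing is read from that share, since the choice used the comparison. Without LIF LP replicate 2, which held 13 of the 21 Nefm counts of its group, the Nefm value was -4.81. Other comparisons with those groups are given in the same way, without a test. Against 2i+LIF LP, the log2 fold change of CH+LIF LP was -1.16 (SE 0.42) for Nefl and -1.64 (SE 0.43) for Nefm, and that of LIF LP was -3.59 (SE 0.46) and -5.49 (SE 0.54). HP against LP gave 0.67 (SE 0.42) and 1.45 (SE 0.43) in CH+LIF, and 2.09 (SE 0.44) and 3.21 (SE 0.52) in LIF. The HP libraries lay above the LP libraries for both genes in both of these media, as labelled. With the HP labels exchanged this would not hold in CH+LIF, since the libraries labelled LIF HP lay below those of CH+LIF LP for Nefm and overlapped with them for Nefl. Against PO, CH+LIF LP gave 1.20 (SE 0.42) for Nefl and 2.09 (SE 0.45) for Nefm, and LIF LP gave -1.23 (SE 0.43) and -1.76 (SE 0.53). Under the alternative settings the CH+LIF LP values ran from 0.78 to 1.95 for Nefl and from 1.29 to 2.58 for Nefm. Those of LIF LP ran from -1.64 to -0.47 and from -2.72 to -1.26. These comparisons share libraries with one another.

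The 8 comparisons among the other 5 groups did not use the libraries on which the genes were chosen, although all 21 libraries shared the estimate of the spread. Called below means an adjusted p under 0.05 in edgeR's quasi-likelihood test with Benjamini-Hochberg adjustment over all 10643 genes. Nefm was called in 6 of these comparisons, 4 times higher and 2 times lower, and Nefl in 3, each time higher.

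Among the media at HP, Nefm was lower in the libraries labelled LIF HP than in either other medium. Against the 2i+LIF HP libraries (351, 195 and 355 CPM) the LIF HP libraries (39.7, 35.7 and 38.1 CPM) were all lower, with a log2 fold change of -2.98 (SE 0.45, adjusted p = 0.000377), a 7.92-fold lower level. The call held under all 29 alternative settings, with values from -3.22 to -1.51, the latter on the summed counts of both genes. In that comparison 1.68% of all genes were called lower and 2.1% higher. Against the libraries labelled CH+LIF HP (155.7, 169 and 159 CPM) LIF HP was again lower in every library, with a log2 fold change of -2.09 (SE 0.44, adjusted p = 0.0148), a 4.26-fold lower level. There 0.874% of all genes were called lower and 0.592% higher. This second call was lost when any of the 3 LIF HP libraries or CH+LIF HP replicates 1 or 2 was left out (values from -2.16 to -2.07, adjusted p from 0.050 to 0.0988). It was also lost on the summed counts of both genes (-1.17, adjusted p = 0.174), most of which were Nefl's. Its direction rests on the HP labels, which the response genes matched in part only.

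Nefl went the same way at HP without passing the test. Every LIF HP library (240 to 354 CPM) lay below every CH+LIF HP library (598 to 618 CPM), with a log2 fold change of -1.005 (SE 0.42, adjusted p = 0.251). The LIF HP libraries also all lay below every 2i+LIF HP library (505 to 852 CPM), with -1.15 (SE 0.42, adjusted p = 0.123). How many of all genes separate in this way between these groups was not counted, so the separation is a description only. Without the 2 libraries that stood apart, neither of which is in these groups, the estimate of the spread was smaller and both comparisons passed, at -1.01 (adjusted p = 0.0494) and -1.17 (adjusted p = 0.0136). Between CH+LIF HP and 2i+LIF HP no difference was detected for either gene. The log2 fold change was -0.15 (SE 0.41, adjusted p = 0.95) for Nefl, whose libraries overlapped, and -0.89 (SE 0.42, adjusted p = 0.397) for Nefm, whose libraries did not. In that comparison 1.1% of all genes were called higher and 0.921% lower.

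Within 2i+LIF, neither gene was called between HP and LP. Nefl gave a log2 fold change of -0.35 (SE 0.41, adjusted p = 0.726) and Nefm one of 0.70 (SE 0.42, adjusted p = 0.415), and the libraries of the groups overlapped for both. Here 1.63% of all genes were called higher and 2.05% lower. The summed counts of both genes gave -0.10 (adjusted p = 0.937).

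Against PO, Nefm was higher in all 4 groups tested. The log2 fold change was 3.73 (SE 0.47, adjusted p = 7.61e-05) in 2i+LIF LP, a 13.3-fold higher level, and 2.79% of all genes were called higher there. In 2i+LIF HP it was 4.43 (SE 0.49, adjusted p = 4.04e-06), a 21.6-fold higher level, beside 5.8% of all genes. In the libraries labelled CH+LIF HP it was 3.54 (SE 0.47, adjusted p = 5.78e-05), an 11.6-fold higher level, beside 3.36% of all genes. In those labelled LIF HP it was 1.45 (SE 0.45, adjusted p = 0.0367), a 2.73-fold higher level, beside 7.1% of all genes, and every library of each of these groups exceeded the highest PO library, at 23.2 CPM. On the summed counts of both genes the values in 2i+LIF LP, 2i+LIF HP and CH+LIF HP were smaller, at 2.53, 2.43 and 2.09, and remained called. The LIF HP call was lost without PO replicate 2, the lowest for Nefm (1.01, adjusted p = 0.139), without PO replicate 3, without any 1 of the LIF HP libraries, and on the summed counts (0.92, adjusted p = 0.144). The median log2 fold change of all genes in that comparison was -0.10.

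Nefl was also higher than in PO in 3 of the 4 groups. The log2 fold change was 2.37 (SE 0.43, adjusted p = 0.00294) in 2i+LIF LP, a 5.15-fold higher level, 2.02 (SE 0.43, adjusted p = 0.00359) in 2i+LIF HP and 1.87 (SE 0.43, adjusted p = 0.0117) in the libraries labelled CH+LIF HP. In LIF HP it was 0.87 (SE 0.42, adjusted p = 0.170), and its libraries overlapped with PO replicate 1 at 303 CPM. Without that PO library, rich in mitochondrial counts, the LIF HP value was 1.59 (adjusted p = 0.0201), and the values in 2i+LIF LP, 2i+LIF HP and CH+LIF HP were 3.13, 2.77 and 2.62. Without PO replicate 2, the lowest, these 3 values were 1.96, 1.60 and 1.45, and all stayed called, whereas the LIF HP value was 0.42 (adjusted p = 0.504). When only the 2 groups of a comparison were fitted, the Nefl calls against PO were lost with nearly the same values, and so were the Nefm calls in 2i+LIF LP and LIF HP. The PO libraries are also those whose tables carry the other code.

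Markers of pluripotent stem cells moved in the same comparisons. In 2i+LIF LP against PO 2 of the 8 were called lower, the transcription factor genes Nanog (log2 fold change -1.64, SE 0.38, adjusted p = 0.0125) and Zfp42 (-1.35, SE 0.36, adjusted p = 0.0274), where 2.27% of all genes were called lower. In 2i+LIF HP 4 were called lower, Nanog, Zfp42, Esrrb and Tfcp2l1, with values from -2.40 to -1.34 beside 4.79% of all genes, and Dppa3 was called higher. In CH+LIF HP Tfcp2l1 alone was called lower (-2.07, SE 0.45, adjusted p = 0.00834), beside 2.45% of all genes. In LIF HP Zfp42 and Tfcp2l1 were called lower, at -1.95 and -1.42, beside 5.17% of all genes, and Pou5f1 was called higher. In these comparisons, in the same order, 4, 3, 4 and 2 of the 8 were called lower without the 2 libraries that stood apart. Their part in the levels of Nefl and Nefm was not tested.

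**Figure D3:**
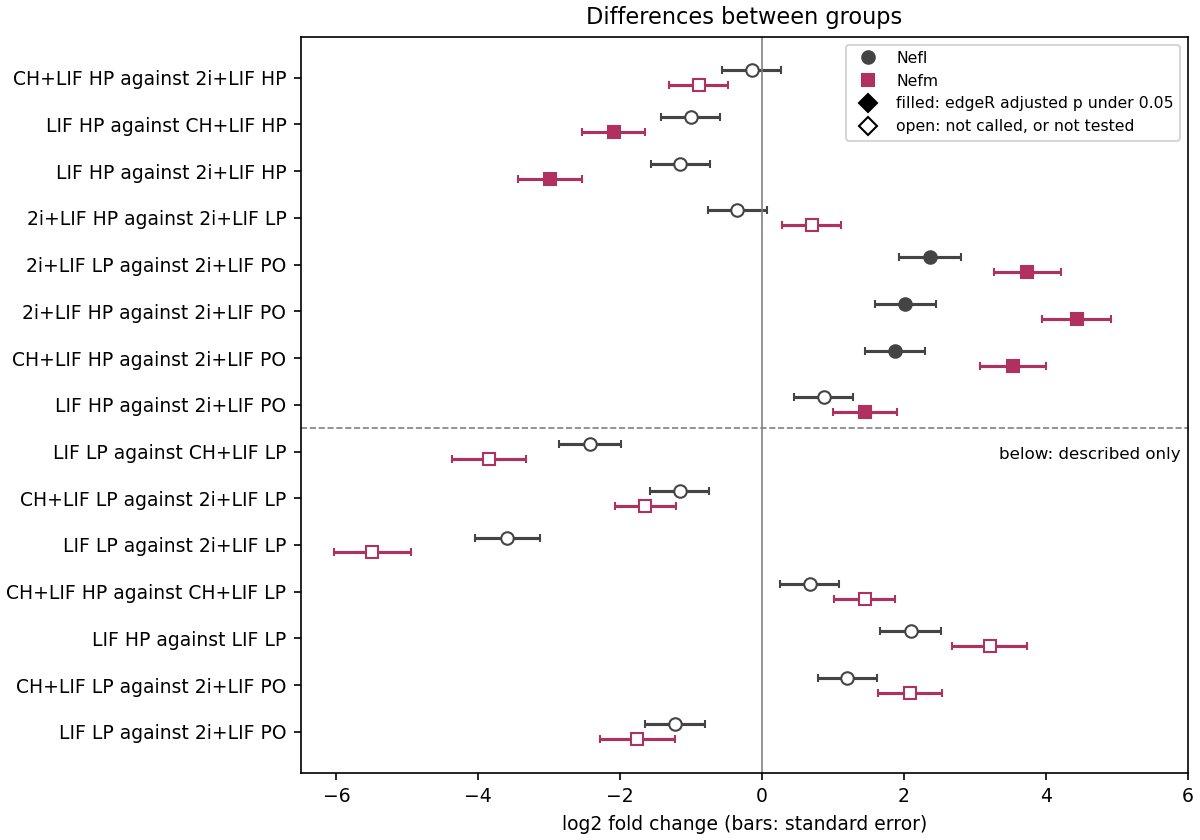
Log2 fold change of Nefl (circles) and Nefm (squares) in 15 comparisons of groups, with standard errors as bars, where the comparisons below the dashed line were not tested because they hold LIF LP or CH+LIF LP. Filled symbols mark an edgeR adjusted p under 0.05, and Nefm lies farther from 0 than Nefl in every comparison.

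The balance of counts between the 2 genes is given by the share of Nefm. It is a share of RNA counts, not corrected for exonic length, and protein was not measured. Of the counts assigned to either gene, Nefm took 34.8%, 27.8% and 29.4% in the 2i+LIF HP libraries, from 2172, 1283 and 1259 counts. It took 20.4%, 22.1% and 20.5% in those labelled CH+LIF HP, 15.5%, 21.2% and 16.9% in 2i+LIF LP, and 15.1%, 11.5% and 13.8% in CH+LIF LP. The libraries labelled LIF HP gave 11.3%, 9.16% and 13.7%, and those of PO 7.12%, 9.01% and 9.02%. The 3 media at HP and 2i+LIF LP against 2i+LIF HP did not overlap. The exact 95% binomial interval of a single library was 32.8 to 36.9% in 2i+LIF HP replicate 1 and 9.84 to 18.4% in LIF HP replicate 3, which had 270 counts. In LIF LP the share was 1.92%, 11.0% and 3.94%, with the widest of its intervals from 6.00 to 18.1%. These intervals cover counting error only. The share does not depend on the scaling of libraries, but it takes the assignment of the overlapping bases as deposited.

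As group means the Nefm share was 30.7 ± 3.66% in 2i+LIF HP, 21.0 ± 0.93% in CH+LIF HP, 17.9 ± 2.97% in 2i+LIF LP, 11.4 ± 2.27% in LIF HP and 8.38 ± 1.09% in PO (SD, n = 3 each). The difference of LIF HP was -19.3 percentage points from 2i+LIF HP and -9.63 points from CH+LIF HP, and 2i+LIF HP lay 12.8 points above 2i+LIF LP. In all 8 comparisons the libraries of the groups did not overlap. The two-sided exact permutation p was 0.1 in each, before and after adjustment over the 8, which is the smallest that 3 libraries against 3 can give, so the test could not pass 0.05.

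**Figure D4:**
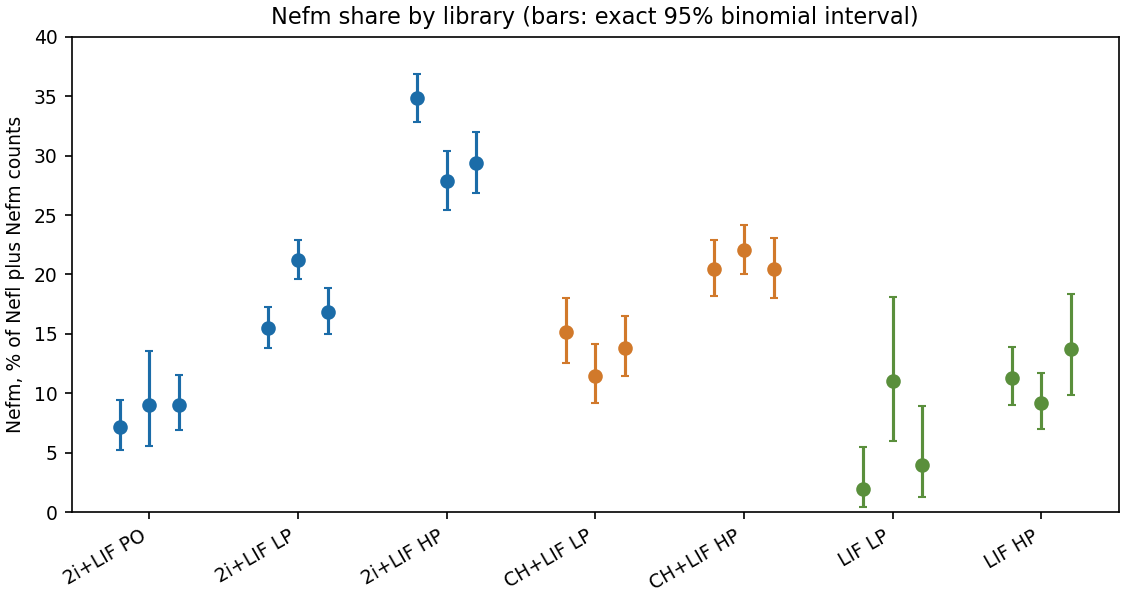
Nefm as a percentage of the counts assigned to Nefl or Nefm, with 1 point per library, coloured by medium, and its exact 95% binomial interval as a bar. The share is highest in 2i+LIF HP, at 27.8 to 34.8%, and at or below 13.7% in every LIF HP, LIF LP and PO library.

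Nefl and Nefm varied together across libraries. Their log2 CPM had a Pearson r of 0.951 and a Spearman rho of 0.916 over the 21 libraries. Over the 15 libraries outside LIF LP and CH+LIF LP the values were 0.935 and 0.836. For the deviations from group means they were 0.669 and 0.556. The libraries fall into groups and share a scaling factor, and the genes share bases, so these values are descriptions. Among 10516 genes with at least 5 CPM in 1 group or more, each was the gene most like the other by Pearson r over the 21 libraries, which include those on which the genes were chosen together. Each also ranked first for the other over the 15 libraries outside LIF LP and CH+LIF LP.

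After each other, the genes most like Nefl over the 21 libraries were Tbrg4 (r = 0.871), Fetub (0.867), Gm45902 (0.789), Rragd (0.785) and Plagl1 (0.777). Those most like Nefm were Tbrg4 (0.850), Plagl1 (0.850), Fetub (0.849), Rragd (0.840) and Gpx2 (0.805). Tbrg4 encodes a mitochondrial RNA-binding protein, and its group means ran only from 80.6 CPM in LIF LP to 138 CPM in CH+LIF HP. Fetub encodes the secreted protease inhibitor fetuin-B and ran from a mean of 4.07 CPM in LIF LP to 92.5 CPM in 2i+LIF HP. Plagl1, an imprinted zinc finger gene, ran from 2.26 CPM in LIF LP to 57.9 CPM in 2i+LIF HP. Rragd, a GTPase of amino acid sensing, ran from 6.45 CPM in LIF LP to 58.3 CPM in 2i+LIF HP. Gpx2, a glutathione peroxidase, was at 271 CPM in 2i+LIF HP and at most 36.5 CPM in any other group mean. Without LIF LP and CH+LIF LP the r with Nefl was 0.870 for Tbrg4 and 0.632 for Rragd. The genes most like Nefl and Nefm lay on chromosomes 2, 4, 10, 11, 12 and 16, none on chromosome 14.

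The other neuronal filament genes had other orders of levels. Nefh, the heavy chain, had group means of 36.0 CPM in 2i+LIF LP, 18.5 in LIF LP, 18.2 in CH+LIF HP, 13.7 in PO, 12.0 in CH+LIF LP, 7.96 in LIF HP and 7.77 in 2i+LIF HP. The first of these rested on 77.1 CPM in 2i+LIF LP replicate 1, the library rich in Gm42418, beside 15.1 and 15.7 CPM. Nefh was called lower at HP than at LP in 2i+LIF (log2 fold change -2.16, SE 0.57, adjusted p = 0.0289), but not without the 2 libraries that stood apart (-0.94, adjusted p = 0.304). Ina was highest in LIF LP, where Nefl and Nefm were lowest, at 29.7, 28.5 and 32.7 CPM. Its means were 20.0 CPM in CH+LIF LP, 12.0 CPM in 2i+LIF LP and 4.69 to 6.83 CPM in the other 4 groups. Prph was likewise highest in LIF LP, at 19.8, 32.5 and 14.4 CPM, with 2 counts in all in the 3 libraries of 2i+LIF HP. Neither Ina nor Prph was called in the 8 comparisons, in which the adjusted p was 0.38 or more for Ina and 0.0968 or more for Prph.

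The list of other intermediate filament genes held 18, of which 13 passed the filter on low counts. In LIF HP against CH+LIF HP edgeR called none of the 13, 3 had an unadjusted p under 0.05 and DESeq2 called 1 higher. Without the 2 libraries that stood apart 1 was called higher and 1 lower. Vim, the filament of mesenchymal and progenitor cells, was the lower of these (-1.07, adjusted p = 0.0313). In LIF HP against 2i+LIF HP edgeR again called none, 3 had an unadjusted p under 0.05, DESeq2 called 1 lower and the fit without the 2 libraries called 3 lower. The median log2 fold change of the 13 was -0.18 and -0.22 in these comparisons, beside 0.01 and -0.02 over all genes. Between CH+LIF HP and 2i+LIF HP 1 gene was called lower in the first, the epithelial keratin gene Krt7, beside 0.921% of all genes. It was without counts in CH+LIF HP, and its mean in 2i+LIF HP was 23.5 CPM. In 2i+LIF HP against 2i+LIF LP, Krt7 and Krt18 were called higher and Nefh lower, beside 1.63% and 2.05% of all genes, and the Nefh call was lost without the 2 libraries, as given above. Against PO, 2 of the 13 were called higher in 2i+LIF LP, 3 in 2i+LIF HP, 2 in CH+LIF HP and 1 in LIF HP, where 2.79%, 5.8%, 3.36% and 7.1% of all genes were called higher. The count in LIF HP is near the share over all genes. Vim was called higher in all 4, with group means of 382, 184, 332 and 159 CPM beside 47.9 CPM in PO.

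Other neuronal markers had their own order of levels. Of 22 neuronal genes listed, 13 passed the filter, and Dcx and Scg2 had no counts in any library. A count of 0 allows up to 3 counts, or 0.793 to 2.65 CPM by library. The summed level of the list was 1256 to 1346 CPM in LIF LP and 487 to 899 CPM in 2i+LIF HP, the groups with the lowest and the highest mean of Nefm. It was, however, also high in 2i+LIF LP, at 1051 to 1486 CPM, and 988 to 1334 CPM in PO, groups that lie near opposite ends of the Nefl and Nefm orders. Most of it was Stmn2 and Ncam1, which embryonic stem cells also expressed here at 257 to 493 and 85.8 to 417 CPM in the group means. In LIF HP against 2i+LIF HP 3 of the 13 were called higher and 1 lower, beside 2.1% and 1.68% of all genes. Gap43, a growth cone protein, had a log2 fold change of 4.56 (SE 1.22, adjusted p = 0.0347), Gng3, a neuronal G protein subunit, of 2.78 (SE 0.45, adjusted p = 0.000671) and Uchl1, a neuronal deubiquitinase, of 2.08 (SE 0.36, adjusted p = 0.00107). Celf4, an RNA-binding protein, was lower, at -2.69 (SE 0.70, adjusted p = 0.0298). In the same comparison Nefm was 7.92-fold lower. Without the 2 libraries that stood apart 5 were called higher and 2 lower.

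In the other comparisons among cultured groups, Gng3 was called higher in CH+LIF than 2i+LIF at HP, beside 1.1% of all genes, and Ncam1, Uchl1 and Gng3 were called lower at HP than at LP in 2i+LIF, beside 2.05%. In LIF HP against CH+LIF HP edgeR called none of the 13, 3 had an unadjusted p under 0.05 and DESeq2 called 1 lower. Against PO, Tubb3 and Gap43 were called higher in 2i+LIF LP, beside 2.79% of all genes. In 2i+LIF HP Stmn3 was called higher and Mapt, Ncam1 and Chga lower, beside 5.8% and 4.79% of all genes. In LIF HP Gap43, Uchl1 and Gng3 were called higher and Mapt, Chga and Celf4 lower, beside 7.1% and 5.17%. In CH+LIF HP edgeR called none, 5 had an unadjusted p under 0.05 and DESeq2 called 1 higher. The Tubb3 call in 2i+LIF LP (0.94, adjusted p = 0.171) and the Mapt call in LIF HP (-1.02, adjusted p = 0.0919) were lost without the 2 libraries that stood apart. Of the 13 tested neuronal genes 5 had their highest group mean in LIF LP, as had 13.5% of all genes tested. The part of other cell types in the levels of Nefl and Nefm was not tested.

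Neural progenitor genes numbered 17, of which 6 passed the filter, and Neurog1 and Fabp7 had no counts in any library. Their summed level was 139 to 141.9 CPM in LIF LP, 27.8 to 74.7 CPM in 2i+LIF HP and 55.4 to 105 CPM in 2i+LIF LP. Sox1, an early neural transcription factor, had a group mean of 48.7 CPM for LIF LP but 0.545 CPM for 2i+LIF HP. In LIF HP against CH+LIF HP, Otx2 (log2 fold change -3.86, SE 0.81, adjusted p = 0.0141) and Sox11 (-3.60, SE 0.83, adjusted p = 0.0232), transcription factors of the early neural plate, were called lower, together with Nefm, beside 0.874% of all genes. Between CH+LIF and 2i+LIF at HP Otx2 was called higher in CH+LIF (3.27, SE 0.76, adjusted p = 0.0166), beside 1.1% of all genes, where Nefm was not called. Within 2i+LIF, Sox1 was called lower at HP than at LP, beside 2.05% of all genes. Against PO, Pax6 and Sox11 were called higher in 2i+LIF LP, beside 2.79% of all genes. The Pax6 call was lost without the 2 libraries that stood apart (adjusted p = 0.149), and it rested on 18 counts in 2i+LIF LP and none in PO. Pax6 was called higher in 2i+LIF HP, from 10 counts, and Otx2 lower, beside 5.8% and 4.79% of all genes. Sox11 was called higher in CH+LIF HP, beside 3.36%, and Otx2 lower in LIF HP, beside 5.17%. Of 8 glial genes 2 passed the filter, and Aqp4 and Sox10 had no counts in any library.

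**Figure D5:**
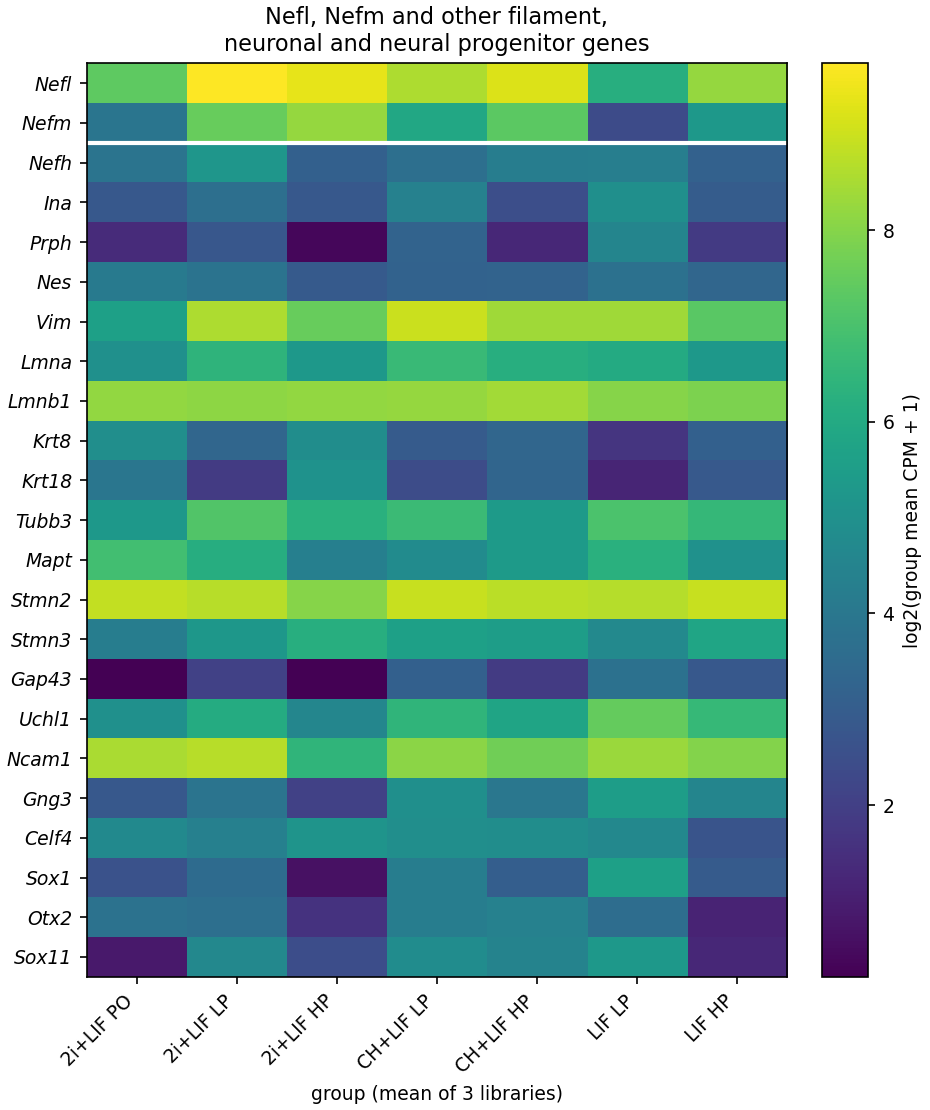
Group means of Nefl, Nefm (above the white line), other intermediate filament genes and selected neuronal and neural progenitor genes of the lists, as log2 of mean CPM plus 1, with groups on the horizontal axis and brighter colours for higher levels. Ina, Prph, Uchl1, Gng3 and Sox1 are brightest in LIF LP, where Nefl and Nefm are darkest, whereas Tubb3 and Ncam1 are brightest in 2i+LIF LP, Mapt in PO and Stmn3 in 2i+LIF HP.

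The genes that move, crosslink, modify and degrade neurofilaments were 20 on their list, and all passed the filter. In the 4 comparisons among cultured groups edgeR called none of them, and 1, 1, 0 and 6 had an unadjusted p under 0.05 when CH+LIF HP was set against 2i+LIF HP, LIF HP against CH+LIF HP, LIF HP against 2i+LIF HP, and 2i+LIF HP against 2i+LIF LP. DESeq2 called 1, in the last of these. The calls against PO included Dynll1 higher and Trim2 lower in 2i+LIF HP, Trim2 lower in CH+LIF HP, and Dst and Trim2 lower in LIF HP, where 5.8% of all genes were called higher in the first and 4.79%, 2.45% and 5.17% lower in the 3 groups. None of these calls was kept without the 2 libraries that stood apart, with adjusted p from 0.0617 for Dynll1 to 0.397 for Dst. Kif5b, a motor of axonal transport, had group means of 291 to 487 CPM, and Gsk3b, a kinase of neurofilament tails and a target of CHIR99021, of 131 to 249 CPM.

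Rest itself gave 1549, 471 and 562 CPM in the PO libraries, a mean of 861 ± 598 CPM (SD, n = 3), and group means of 370 to 607 CPM elsewhere. Without PO replicate 1, the library rich in mitochondrial counts, the PO mean was 517 CPM, within the range of the other groups. Its log2 fold change was -0.21 (SE 0.44, adjusted p = 0.869) in LIF HP against CH+LIF HP and -0.21 (SE 0.44, adjusted p = 0.832) in LIF HP against 2i+LIF HP, where Nefm was called lower. Against PO it was -0.50 to -1.22 in the 4 groups, with an adjusted p from 0.068 to 0.535, and without the 2 libraries that stood apart it was -0.17 to -0.49 (adjusted p from 0.388 to 0.826). Of the 12 genes of the REST complex, Rest included, edgeR called none in the 4 comparisons among cultured groups, 1, 0, 3 and 1 had an unadjusted p under 0.05, and DESeq2 called none. Without the 2 libraries that stood apart 1 was called when LIF HP was set against 2i+LIF HP, the histone methyltransferase gene Ehmt2, as lower (-1.11, adjusted p = 0.0162, against 0.131 with all libraries). Against PO the histone deacetylase genes Hdac1 in 2i+LIF HP (-1.37, SE 0.40, adjusted p = 0.0287) and Hdac2 in LIF HP (-0.90, SE 0.29, adjusted p = 0.0452) were called lower, 1 of the 12 in each, beside 4.79% and 5.17% of all genes. A single call in 12 is near these shares. The Hdac1 call was lost without the 2 libraries that stood apart (-0.90, adjusted p = 0.0755), whereas Rcor2, a corepressor gene, was then called lower in 2i+LIF HP and LIF HP and Ehmt2 higher in 2i+LIF HP. Of 15 neuronal genes known as REST targets 4 passed the filter. These were Stmn2, with group means of 257 to 493 CPM, and Bdnf, Celsr3 and Unc13a, with group means of 0.678 to 7.73 CPM.

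Near the locus, 9 annotated genes start within 500 kb of either gene, and 4 passed the filter. Kctd9, a gene of the potassium channel tetramerisation domain family at 67715937 to 67742310 on chromosome 14, was called higher than in PO in all 4 comparisons, with log2 fold changes of 1.45 (SE 0.37), 2.31 (SE 0.38), 1.43 (SE 0.37) and 1.63 (SE 0.37) in 2i+LIF LP, 2i+LIF HP, CH+LIF HP and LIF HP, where 2.79%, 5.8%, 3.36% and 7.1% of all genes were called higher. Dock5, a guanine nucleotide exchange factor at 67752135 to 67933442, was instead lower than PO in HP of the 3 media, at -1.53 (SE 0.45), -1.52 (SE 0.45) and -1.84 (SE 0.45) in 2i+LIF, CH+LIF and LIF, where 4.79%, 2.45% and 5.17% of all genes were called lower. Without the 2 libraries that stood apart the Dock5 call in CH+LIF HP was lost (-1.14, adjusted p = 0.0526). Cdca2, a regulator of chromatin phosphorylation in mitosis, was called lower than PO in LIF HP (-1.29, SE 0.43, adjusted p = 0.0499), beside 5.17% of all genes, but not without those 2 libraries (-0.35, adjusted p = 0.542). In LIF HP against CH+LIF HP, where Nefm was lower, Kctd9 gave 0.20 (SE 0.36, adjusted p = 0.843), Dock5 -0.32 (SE 0.46, adjusted p = 0.800) and Cdca2 -0.59 (SE 0.43, adjusted p = 0.554).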

How the data were processed

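Counts per Ensembl gene ID, whole numbers and not normalized, were deposited by the authors as 1 table per library. Per the submitters' processing notes, bcl2fastq, STAR 2.6.0a, HTSeq and mm10 were named, and the annotation and strand setting are not given in the sources used here. The 5 closing entries of each table, which held 38.0 to 52.6% of its counts, stayed out of all sums. Names and positions came from GENCODE M21, in which 31011 IDs were found and 42 were not.

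All 21 libraries entered 1 edgeR 4.0.16 quasi-likelihood fit (R 4.3.3) with a coefficient per group, TMM scaling and filterByExpr, which left 10643 genes and 14 residual degrees of freedom. Tests were of either direction, p-values were adjusted by Benjamini and Hochberg's method per comparison at a threshold of 0.05, and SE is the absolute log2 fold change divided by the square root of F. CPM are counts divided by TMM-scaled sizes, with a prior count of 2 in log2 CPM. Fits were tested on simulated data for LIF HP against CH+LIF HP. Of simulated 4-fold changes 50 of 97 were called, and of 8-fold changes 86 of 99, with 5 false calls. Changes of these sizes or smaller can therefore be missed. The members, the 11 gene lists and the tests were chosen with earlier results of these data known. Named genes were the members, list genes, genes starting within 500 kb and the 5 most correlated with each member (at least 5 CPM in a group); response genes of the media were added. Same-numbered libraries deviated together (r over 0.1 in every pair) only in 2i+LIF LP against 2i+LIF PO (0.397, 0.345 and 0.179). No 2 replicates agreed within sampling noise (lowest chi-square per degree of freedom 4.82). Alternatives were DESeq2 1.42.0, its size factors in edgeR, no filter, a fit of the groups compared alone, a replicate block, both genes' counts summed, removal of mitochondrial genes and Gm42418, and omission of libraries singly or of the 2 that stood apart. The omission of libraries outside a comparison, the recounts of lists and the omission of libraries from the Nefm share were chosen after seeing the data. Results of some list genes are not reported here.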

Additional observations from a re-analysis of the deposited data

How the results depend on the processing

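Each of the 16 tested values was recomputed under 29 alternatives, and 437 of the 464 recomputed values kept the direction and the side of the threshold. Most of the 29 omit a single library, mainly outside the groups compared, where little change can arise. Values that stayed not called are among the 437. The replicate block changed no call, also in 2i+LIF LP against 2i+LIF PO, where the numbers deviate together (2.45 for Nefl and 3.78 for Nefm). Fitting only the groups compared ended the Nefl calls against PO in 2i+LIF LP (2.38, adjusted p = 0.276), 2i+LIF HP (2.03, 0.0925) and CH+LIF HP (1.87, 0.0796) and the Nefm calls against PO in 2i+LIF LP (3.74, 0.162) and LIF HP (1.46, 0.0967), with fewer libraries to estimate the spread, and it gave Nefl a call in LIF HP against CH+LIF HP (-1.04, 0.0111). Without the 2 libraries that stood apart Nefl was called in LIF HP against CH+LIF HP (-1.01), 2i+LIF HP (-1.17) and PO (1.61, 0.00536). Summed counts of both genes, against Nefl's own value, gave a call in LIF HP against 2i+LIF HP (-1.51, 0.0420) and, against Nefm's, ended those in LIF HP against CH+LIF HP (-1.17) and PO (0.92) and turned 2i+LIF HP against 2i+LIF LP to -0.10. Omission of single libraries gave these ranges: Nefl -0.32 to 0.067 for CH+LIF HP against 2i+LIF HP (above 0 without 2i+LIF HP replicate 3), -1.32 to -0.96 in LIF HP against 2i+LIF HP (called without PO replicate 1) and 0.42 to 1.59 in LIF HP against PO (called without PO replicate 1), and Nefm -2.16 to -2.07 in LIF HP against CH+LIF HP and 1.01 to 1.92 in LIF HP against PO. The latter call was also lost without CH+LIF HP replicate 2, which is outside that comparison (1.43, 0.0513). The Nefm share kept its direction in every omission of a single library of the groups compared (6 for each of the 8 comparisons), at the least 1.83 percentage points in LIF HP against PO. Depth limits Nefm in LIF LP, with 21 counts in all.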
